A study of Mus musculus with 8 samples.

Results

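The subject is 10 nuclear genes for subunits of respiratory complexes II and III, followed by probe-set intensity in C2C12 myotubes. The members were chosen by symbol: Sdha, Sdhb, Sdhc and Sdhd of complex II, and Uqcrc1, Uqcrc2, Uqcrfs1, Uqcrb, Uqcrq and Cyc1 of complex III. They are 10 of the 18193 genes that had a probe set annotated to 1 symbol alone, and they had 20 of the 34945 such probe sets. Each gene is read at the probe set with the highest mean log2 intensity over all 8 arrays, and the others are given as a check. Of the 10 genes, 5 encode proteins that hold iron (Sdhb, Sdhc, Sdhd, Uqcrfs1 and Cyc1), and the other 5 do not (Sdha, Uqcrc1, Uqcrc2, Uqcrb and Uqcrq).

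C2C12 is an established mouse myoblast line whose cells fuse into multinucleated myotubes when serum is lowered. All cultures were held in 2% dialyzed serum for 3 days, then infected with an adenovirus overexpression construct, and RNA was taken 3 days after that. There were 4 groups of 2 Affymetrix mouse arrays. The first group received GFP-PGC-1α (PGC-1α tagged with green fluorescent protein) plus 100 µM deferoxamine, and is called PGC-1α plus DFO. The second received GFP-PGC-1α alone and is called PGC-1α. The third received the GFP construct plus 100 µM deferoxamine and is called GFP plus DFO. The fourth received the GFP construct alone and is called GFP, so that all 4 groups, the controls included, carried an adenovirus that makes GFP. PGC-1α is a transcriptional coactivator of genes for mitochondrial energy metabolism, and deferoxamine (DFO) is a chelator that binds ferric iron. The design asks how these genes answer to the coactivator, to loss of usable iron, and to both. The arrays of a group are described as duplicate biological samples, with no word on the cultures they came from, so the p-values measure the spread between these samples.

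Complex II, succinate dehydrogenase, oxidises succinate in the citric acid cycle and hands the electrons to ubiquinone in the inner mitochondrial membrane. Complex III takes electrons from reduced ubiquinone, passes them to cytochrome c and pumps protons, so the pair are neighbours in the respiratory chain of muscle. Both complexes hold iron among the members: iron-sulfur clusters in Sdhb, a haem held between Sdhc and Sdhd, the Rieske iron-sulfur cluster of Uqcrfs1 and the haem of Cyc1 (cytochrome c1). Sdha carries the flavin where succinate is oxidised, Uqcrc1 and Uqcrc2 are the large core proteins of complex III, and Uqcrb and Uqcrq are small subunits of complex III. Cytochrome b, the haem-bearing subunit encoded by mitochondrial DNA, is not among the members.

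Because most members moved together, the promoters of those members that the RefSeq promoter table of build GRCm38.p6 holds were searched for 4 letter patterns of factors known to act on mitochondrial or hypoxia genes. The table held 5 of the 10 members: Sdha, Sdhb, Sdhd, Uqcrc1 and Uqcrfs1. The 250 bases before the start site were read on both strands. The pattern CGCANGCGC, of the type bound by NRF1, stood in 2 of these 5 promoters and in 5.19% of all 32851 promoters. The pattern CCGGAAG, of the ETS type that includes GABP, stood in 1 of the 5 and in 6.91% of all. The pattern GACGTG, of the hypoxia response type, stood in 1 of the 5 and in 5.2% of all. The pattern TNAAGGTCA, of the oestrogen-related receptor type, stood in 0 of the 5 and in 1.14% of all. The promoters of Sdhb, Uqcrc1 and Uqcrfs1 held none of these letters in this window. The 2 stretches that hold matches are given in lower case with the matches in capitals, 5′ to 3′ on the gene's strand, to show where the matches lie.
Sdhd, minus strand, chr9:50603874-50603942: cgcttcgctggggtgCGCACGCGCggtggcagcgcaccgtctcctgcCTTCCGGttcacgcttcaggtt
Sdha, minus strand, chr13:74350241-74350381: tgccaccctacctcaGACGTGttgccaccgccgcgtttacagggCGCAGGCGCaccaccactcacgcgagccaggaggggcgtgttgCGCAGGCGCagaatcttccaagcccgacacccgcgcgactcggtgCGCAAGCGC
In Sdhd, counting back from the start site, the NRF1-type match began at base 78 and the ETS-type match, read on the opposite strand as CTTCCGG, at base 46. In Sdha, 3 NRF1-type matches began at bases 97, 54 and 9, and the hypoxia-type match at base 126. The patterns did not overlap each other, and a match is a description of letters, not a binding site.

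The deposited values were probe-set intensities on a linear scale with array medians between 59.45 and 62.82, and the member readings used below lay between 1304 and 12700, far above those medians. Within groups the 2 arrays correlated at r of 0.942 to 0.962 across all 45101 probe sets, on the log2 scale. The lead Ppargc1a probe set, which checks the construct, read 7930 and 7710 with PGC-1α plus DFO, 7211 and 7036 with PGC-1α, 26.6 and 88.1 with GFP plus DFO, and 28.6 and 37.3 with GFP. Its log2 change was 7.34 ± 0.55 with DFO and 7.77 ± 0.55 without DFO, PGC-1α over GFP (limma adjusted p = 0.00174 and 0.00315). Most GFP readings lay at or below the array medians, so the size of these changes rests on readings near background, while the other 4 Ppargc1a probe sets did not rise. The labelled cell type was checked against 10 myotube markers, all of which were measured. Their summed intensity was 16257 and 15065 with PGC-1α plus DFO, 53211 and 53731 with PGC-1α, 23413 and 23641 with GFP plus DFO, and 66830 and 63593 with GFP.

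The catalytic subunit of complex II, Sdha, read 3003 and 2919 with PGC-1α plus DFO, 3887 and 3920 with PGC-1α, 1579 and 1529 with GFP plus DFO, and 2230 and 2156 with GFP. The iron-sulfur subunit Sdhb read 5524 and 5347 with PGC-1α plus DFO, 6183 and 6357 with PGC-1α, 2055 and 2181 with GFP plus DFO, and 2727 and 2987 with GFP. For both genes the 4 groups stood apart without overlap, with PGC-1α arrays highest and GFP plus DFO arrays lowest. The membrane anchor Sdhc read 2598 and 2316 with PGC-1α plus DFO, 3208 and 3207 with PGC-1α, 1337 and 1304 with GFP plus DFO, and 1906 and 2016 with GFP. Its partner anchor Sdhd, with which it shares the haem, read 3967 and 4207 with PGC-1α plus DFO, 4392 and 4560 with PGC-1α, 1691 and 1737 with GFP plus DFO, and 1922 and 2019 with GFP. Sdhd had the smallest steps between cultures with and without DFO of the 4 complex II genes, although its arrays did not overlap either.

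In complex III, the core protein Uqcrc1 read 4432 and 4020 with PGC-1α plus DFO, 5412 and 5325 with PGC-1α, 1508 and 1682 with GFP plus DFO, and 2381 and 2245 with GFP. The second core protein, Uqcrc2, read 4262 and 4168 with PGC-1α plus DFO, 5335 and 5372 with PGC-1α, 1471 and 1477 with GFP plus DFO, and 2398 and 2504 with GFP. Both core proteins followed the order seen for complex II. Cyc1, the cytochrome that delivers electrons to cytochrome c, read 6834 and 6664 with PGC-1α plus DFO, 8572 and 8405 with PGC-1α, 2260 and 2291 with GFP plus DFO, and 4442 and 4451 with GFP. The Rieske protein Uqcrfs1 read 4577 and 4422 with PGC-1α plus DFO, 5989 and 5910 with PGC-1α, 1895 and 1975 with GFP plus DFO, and 2580 and 2550 with GFP. Both kept that order, and Cyc1 had the widest gap between GFP plus DFO and GFP of the 10 members on the log2 scale. The small subunit Uqcrb read 12020 and 11548 with PGC-1α plus DFO, 12589 and 12700 with PGC-1α, 7618 and 7984 with GFP plus DFO, and 11317 and 10717 with GFP. Uqcrq, a small subunit as well, read 3336 and 3241 with PGC-1α plus DFO, 4628 and 4509 with PGC-1α, 2126 and 2079 with GFP plus DFO, and 3604 and 3486 with GFP. Uqcrq alone had its PGC-1α plus DFO arrays below its GFP arrays.

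**Figure D1:**
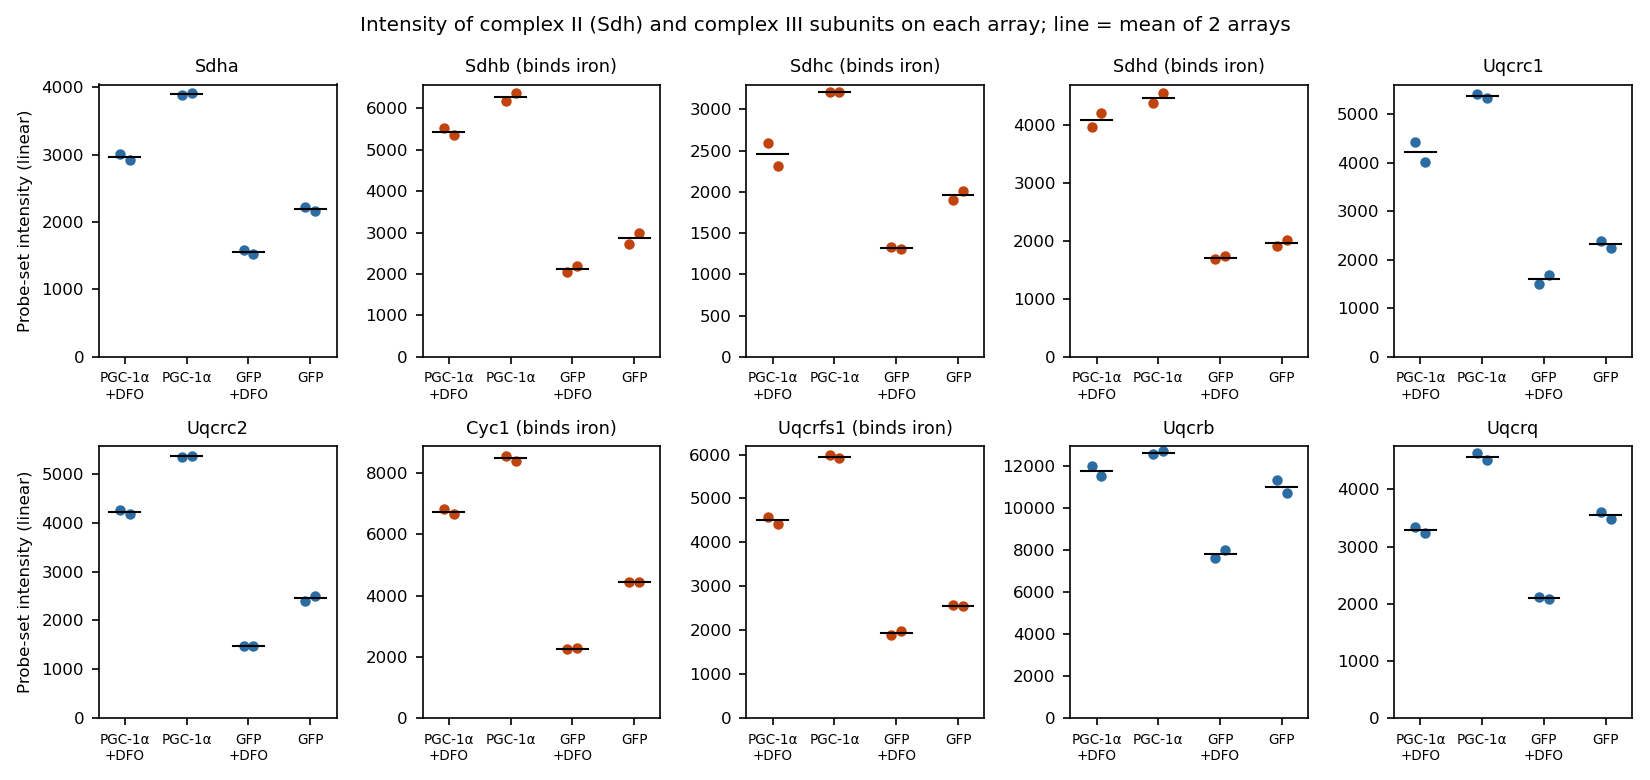
Probe-set intensity (linear, vertical axes starting at 0) of the 10 subunit genes in the 4 groups; each point is 1 array, the line is the mean of 2 arrays, and red marks the 5 iron-holding subunits. In 9 genes the order from highest to lowest is PGC-1α, PGC-1α plus DFO, GFP, GFP plus DFO; in Uqcrq the GFP arrays, at 3604 and 3486, lie above the PGC-1α plus DFO arrays, at 3336 and 3241.

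Overexpressed PGC-1α without DFO raised most of the set about 2-fold. Of the 10 members 9 passed limma's adjusted p of 0.05, all of them higher, against 4.96% of all genes called higher, 4.77% called lower and 9.73% called in either direction. The median log2 change of the members was 1.03, beside -0.08 over all genes. Among complex II genes the log2 change was 0.83 ± 0.08 for Sdha, 1.14 ± 0.09 for Sdhb, 0.71 ± 0.09 for Sdhc and 1.18 ± 0.08 for Sdhd (SE from limma, 2 arrays a group). In complex III it was 1.22 ± 0.10 for Uqcrc1, 1.13 ± 0.08 for Uqcrc2, 0.93 ± 0.07 for Cyc1 and 1.21 ± 0.08 for Uqcrfs1, with limma adjusted p from 0.00274 (Uqcrfs1) to 0.00466 (Uqcrc1). Uqcrq gained 0.37 ± 0.08 (adjusted p = 0.0468), and Uqcrb differed by 0.20 ± 0.08 with an interval of -0.01 to 0.41 and an adjusted p of 0.192. The Uqcrb value comes from its brightest probe set. The second Uqcrb probe set was at 0.86, and the cause of the gap was not tested. In all 10 genes both PGC-1α arrays were above both GFP arrays, which held for 21.9% of all genes. Left-out arrays ended the calls of Sdhc and Uqcrq whenever 1 array of any group other than PGC-1α plus DFO was left out (adjusted p = 0.0536 to 0.0914 for Sdhc and 0.120 to 0.198 for Uqcrq) and that of Sdha without PGC-1α replicate 1 (0.0530), where 6 calls were left. Fitted on the 4 arrays of these groups alone, limma called 0 members and 0 of all genes, Ppargc1a included. The adjusted p ran from 0.0667 to 0.134 for the 9 members that had passed. At an unadjusted p under 0.05 the fit of 8 arrays had 9 members and 5036 of the 18193 genes.

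With DFO present in both arms, PGC-1α was again associated with higher levels, now of all 10 members. Of all genes 6.93% were called higher, 12% lower and 18.9% in either direction. The median log2 change was 1.24 for the members and -0.05 for all genes. Cyc1 differed most, by 1.57 ± 0.07 (2.97-fold, limma adjusted p = 0.000776), followed by Uqcrc2 at 1.52 ± 0.08, Uqcrc1 at 1.41 ± 0.10 and Sdhb at 1.36 ± 0.09. Sdhd differed by 1.25 ± 0.08, Uqcrfs1 by 1.22 ± 0.08, Sdha by 0.93 ± 0.08 and Sdhc by 0.89 ± 0.09. Uqcrq was at 0.65 ± 0.08 and Uqcrb at 0.60 ± 0.08, and both passed (adjusted p = 0.00597 and 0.0089). The second Uqcrb probe set was at 1.27 ± 0.12 here, so the rank of the gene depends on the probe set read, for a cause that was not tested. Both lost the call without either GFP plus DFO array (adjusted p = 0.0560 to 0.0571 for Uqcrq and 0.0600 to 0.0789 for Uqcrb). In all 10 genes the PGC-1α plus DFO arrays lay above the GFP plus DFO arrays, as they did for 25.3% of all genes.

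DFO in GFP myotubes lowered 9 of the 10 members, against 12.5% of all genes called lower, 11.8% called higher and 24.2% called in either direction. The median log2 change was -0.52 for the members and -0.02 for all genes. Cyc1 fell by 0.97 ± 0.07 on the log2 scale, to 0.51 of its GFP level (limma adjusted p = 0.00107). Uqcrq fell by 0.75 ± 0.08, Uqcrc2 by 0.73 ± 0.08, Uqcrc1 by 0.54 ± 0.10, Uqcrb by 0.50 ± 0.08 and Uqcrfs1 by 0.41 ± 0.08. In complex II, Sdhc fell by 0.57 ± 0.09, Sdha by 0.50 ± 0.08 and Sdhb by 0.43 ± 0.09, while Sdhd was at -0.20 ± 0.08 with an interval of -0.41 to 0.01 (adjusted p = 0.155). All 10 had both GFP plus DFO arrays below both GFP arrays, as did 33% of all genes. Cyc1, Uqcrc2 and Uqcrq kept the call whichever array was left out. The count was 3 without either GFP plus DFO array and 5 without either GFP array, with adjusted p up to 0.136 for a lost member (Sdhb). With arrays scaled to the poly-A spike-ins it was 3, with all 10 changes still negative. That scaling called 2920 of all genes, 54.5% of them higher.

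With PGC-1α present, DFO lowered 6 of the 10 members on the deposited scale, while with arrays scaled to the spike-in controls 6 of the 10 changes were positive and 0 members passed. Of all genes 14.2% were called lower, 11.4% higher and 25.6% in either direction. The median log2 change on the deposited scale was -0.35 for the members and 0.01 for all genes. After spike-in scaling the median was 0.01 for the members and 0.36 for all genes. This scaling shifts every gene of a comparison by 1 amount, so the members' -0.35 relative to the median gene could not change. With quantile normalization, which can change it, that value was -0.30. Spike-in scaling called 4350 of all genes, 76.0% of them higher. Uqcrq fell by 0.47 ± 0.08, Uqcrfs1 by 0.40 ± 0.08, Sdha by 0.40 ± 0.08, Sdhc by 0.39 ± 0.09, Uqcrc2 by 0.34 ± 0.08 and Cyc1 by 0.33 ± 0.07 on the deposited scale (limma adjusted p up to 0.0349, that of Sdhc). Uqcrc1 was at -0.35 ± 0.10 (adjusted p = 0.0611), Sdhb at -0.21 ± 0.09 (0.164), Sdhd at -0.13 ± 0.08 (0.319) and Uqcrb at -0.10 ± 0.08 (0.431). All 10 had both PGC-1α plus DFO arrays below both PGC-1α arrays, as did 30.6% of all genes. Without PGC-1α replicate 1 no member passed and without replicate 2 only Uqcrq did; the count was 2 without either GFP plus DFO array, 3 without PGC-1α plus DFO replicate 2, and 4 without any other array. The limma fit of only these 4 arrays called 0 members (adjusted p = 0.0805 to 0.141 for the 6) and 1942 of all genes. At an unadjusted p under 0.05 the fit of all 8 had 7 members and 6780 of the 18193 genes.

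Several measures moved with DFO, with PGC-1α or with both, and their part in the changes of the members was not tested. Of the 10 myotube markers 8 fell with DFO in GFP myotubes and 9 in PGC-1α myotubes, beside 12.5% and 14.2% of all genes. With PGC-1α 4 of the 10 were called lower without DFO and 8 with DFO in both arms. Of all genes 4.77% and 12% were called lower there. Myog, the myogenic factor myogenin, read 63.1 and 71.1 with PGC-1α plus DFO, 5296 and 5245 with PGC-1α, 174 and 141 with GFP plus DFO, and 5223 and 5330 with GFP. Desmin (Des), a muscle intermediate filament, did not pass with DFO, at -0.24 in PGC-1α and -0.27 in GFP myotubes. The 7 markers of myoblasts and reserve cells summed to 2402 to 2801 with PGC-1α plus DFO, 7587 to 8069 with PGC-1α, 4607 to 4851 with GFP plus DFO and 8736 to 9040 with GFP, with Pax7 at 7.89 to 40.7 on every array. Itga7 made up the largest part of each sum. With DFO 4 of the 7 were called lower and 1, Id1, higher, in GFP and in PGC-1α myotubes alike. Id1 was at 0.50 ± 0.12 and 1.05 ± 0.12 there (limma adjusted p = 0.0400 and 0.0036). Of all genes 11.8% and 11.4% were called higher. The 4 measured proliferation markers summed to 342 to 511 and the 2 measured adipocyte markers to 21.1 to 113 over all arrays, and no marker was listed at 0. In bulk RNA, fewer cells of a type and less RNA per cell cannot be told apart. The ratio of 5′ to 3′ actin control signal, a sign of RNA integrity, was 0.753 and 0.811 with PGC-1α plus DFO, 0.919 and 0.897 with PGC-1α, 0.868 and 0.859 with GFP plus DFO, and 0.921 and 0.898 with GFP. The mean log2 signal of 27 poly-A spike-in probe sets was 7.60 and 7.47 with PGC-1α plus DFO, 7.95 and 7.82 with PGC-1α, 8.16 and 7.91 with GFP plus DFO, and 8.14 and 8.05 with GFP.

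**Figure D2:**
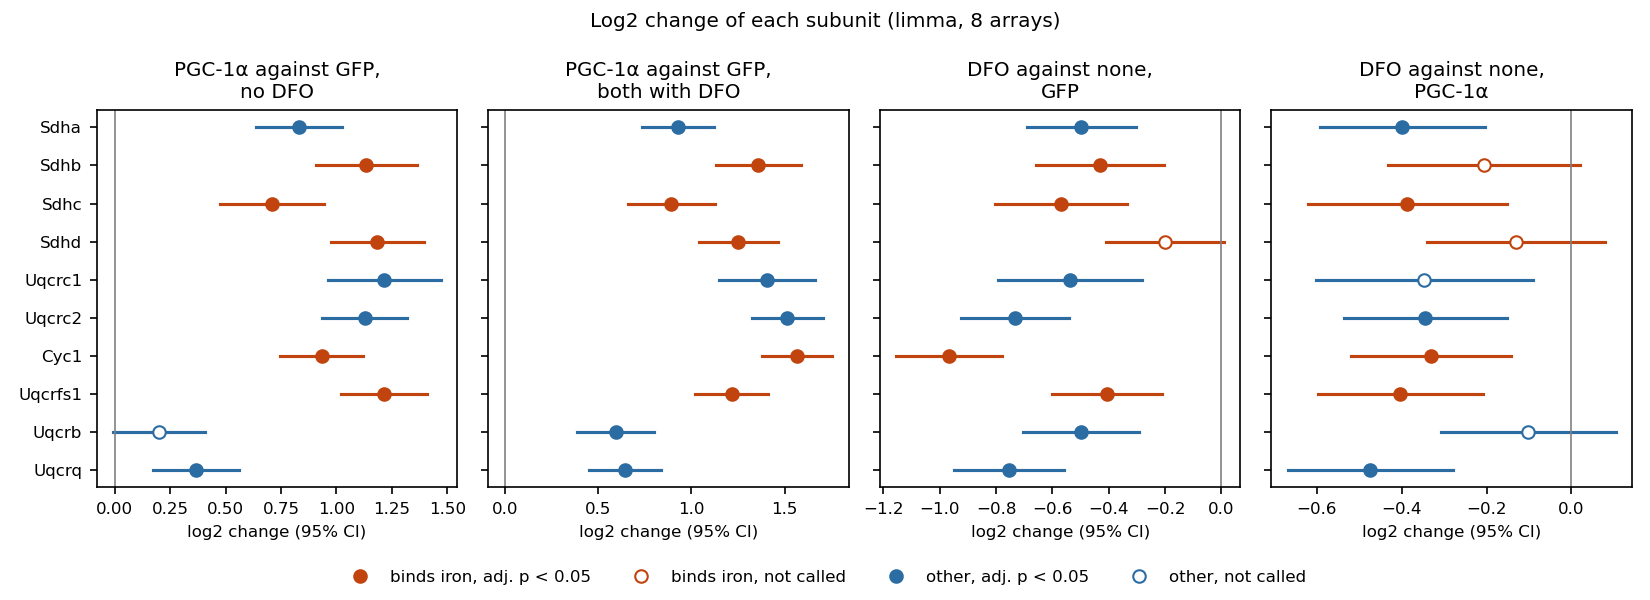
Log2 change of each subunit gene (horizontal axes, on a scale of its own in each panel) with its 95% confidence interval from limma over 8 arrays; filled points passed an adjusted p of 0.05, and red marks iron-holding subunits. The changes with PGC-1α run from 0.20 (Uqcrb) to 1.57 (Cyc1, with DFO); the changes with DFO are all negative on the deposited scale, from -0.97 (Cyc1, GFP) to -0.10 (Uqcrb, PGC-1α), and with spike-in scaling 6 of the 10 in PGC-1α myotubes are positive.

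Set against GFP myotubes without DFO, myotubes with both PGC-1α and DFO had 7 of the 10 members higher, where 13.5% of all genes were called higher, 18.3% lower and 31.8% in either direction. The median log2 change was 0.69 for the members and -0.01 for all genes. Sdhd stood 1.05 ± 0.08 above GFP (limma adjusted p = 0.000674), Sdhb 0.93 ± 0.09, Uqcrc1 0.87 ± 0.10, Uqcrfs1 0.81 ± 0.08, Uqcrc2 0.78 ± 0.08, Cyc1 0.60 ± 0.07 and Sdha 0.43 ± 0.08. Sdhc was at 0.32 ± 0.09 and just missed the threshold (adjusted p = 0.0505). Uqcrb was at 0.10 ± 0.08 (0.436) and Uqcrq at -0.11 ± 0.08 (0.359), with intervals of -0.11 to 0.30 and -0.30 to 0.09. With spike-in scaling Uqcrq was at 0.46, the sign turned, and all 10 passed. That scaling also called 7308 of all genes, 83.9% of them higher, and moved the median over all genes to 0.56. No array left out ended any of the 7 calls, but the fit of these 4 arrays alone ended those of Cyc1 (adjusted p = 0.0513) and Sdha (0.0941), and the mean of probe sets that of Sdha (0.641). This comparison shares its GFP arrays with those of PGC-1α and of DFO against GFP above, and its PGC-1α plus DFO arrays with the remaining 2.

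Whether the change with DFO depended on the construct was read from the interaction, the change with DFO in PGC-1α myotubes minus that in GFP myotubes. limma called 0 of the 10 members at an adjusted p of 0.05, against 0.231% of all genes called with a positive term, 0.324% with a negative term and 0.555% in either direction. At the single-gene level 4 members had an unadjusted p under 0.05, as did 3165 of the 18193 genes. All 10 interaction terms were positive on the deposited scale, with a median of 0.21 beside -0.01 for all genes, though that of Uqcrfs1 (0.00, interval -0.27 to 0.28) turned to -0.02 with median centring. With spike-in scaling the medians were 0.50 for the members and 0.28 for all genes (0.65 and 0.43 without TrpnX, 1 of the spike-ins). Cyc1 had the largest term, 0.64 ± 0.11 (interval 0.37 to 0.90, adjusted p = 0.0795). Its change with DFO was -0.33 ± 0.07 in PGC-1α and -0.97 ± 0.07 in GFP myotubes. Uqcrb followed at 0.40 ± 0.12 and Uqcrc2 at 0.39 ± 0.11 (adjusted p = 0.188 and 0.173), then Uqcrq at 0.28 ± 0.11 (0.28). These 4 are complex III genes, while the other 2 of that complex, Uqcrc1 at 0.19 and Uqcrfs1 at 0.00, lay among or below the complex II terms of 0.07 (Sdhd) to 0.22 (Sdhb). With eBayes trend and robust options, which shrink variances by signal level, limma called 1467 of the 18193 genes (8.06%), among them 4 members, Cyc1 (adjusted p = 2.87e-05), Uqcrb (0.000696), Uqcrc2 (0.005) and Uqcrq (0.0309).

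**Figure D3:**
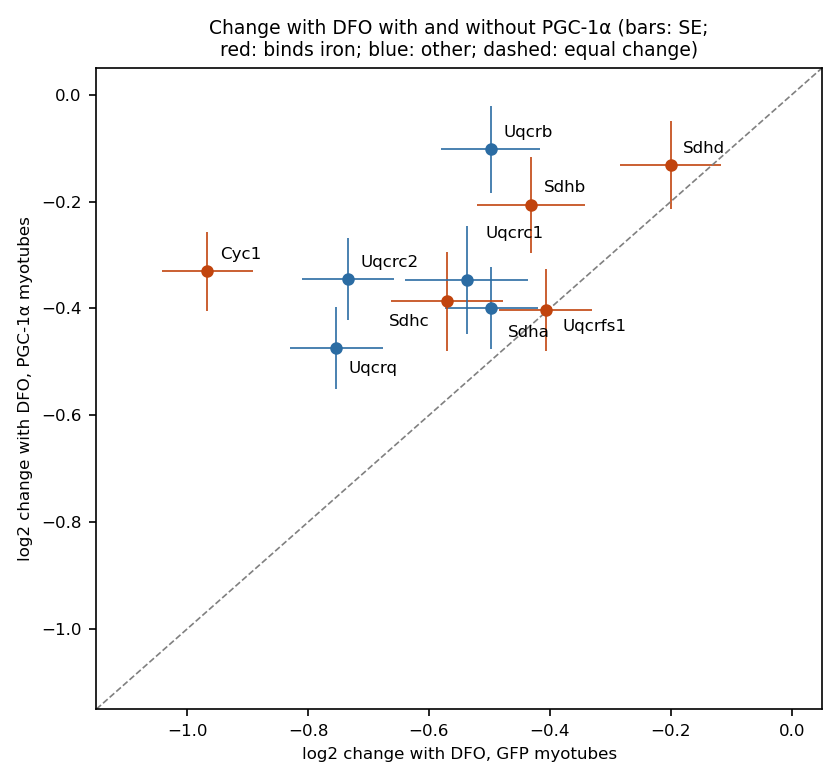
Log2 change with DFO in PGC-1α myotubes (vertical axis) against that in GFP myotubes (horizontal axis) for the 10 subunit genes, with bars of 1 SE; the dashed line marks equal change, and red marks iron-holding subunits. On the deposited scale 9 points lie above the line and Uqcrfs1 lies on it, with Cyc1 farthest away at -0.33 and -0.97, and no distance from the line passed the adjusted threshold.

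The 5 iron-holding subunits and the 5 others were compared by their medians as a description. With PGC-1α against GFP the median log2 change was 1.14 for iron-holding subunits (0.71 to 1.21) and 0.83 for the others (0.20 to 1.22), a difference of 0.30. With DFO in both arms the medians were 1.25 and 0.93, a difference of 0.32. For DFO in GFP myotubes they were -0.43 and -0.54, a difference of 0.11 in the direction of a smaller fall of the iron-holding subunits, and for DFO in PGC-1α myotubes -0.33 and -0.35, a difference of 0.02. The ranges of the 2 classes overlapped in every comparison. In GFP myotubes the iron-holding class held both the largest fall with DFO, that of Cyc1, and the smallest, that of Sdhd. The others ran from -0.75 (Uqcrq) to -0.50 (Sdha). With 5 members read at their second-brightest probe sets (Sdha, Sdhc, Sdhd, Uqcrc2 and Uqcrb), the difference with PGC-1α was 0.12 without DFO and -0.05 with DFO in both arms, and that with DFO in GFP myotubes was 0.32. At the brightest probe sets the last was -0.00126, the sign turned, without GFP replicate 1 and 0.165 without GFP replicate 2. On each array the iron-holding members' median log2 level minus that of the others had a pooled SD of 0.03 within groups. That spread is of levels, not of the differences in change above. It does not cover the choice of probe sets or of genes. Leaving out 1 array at a time, the difference with PGC-1α against GFP ran from 0.21 to 0.39.

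The further probe sets bear mostly on Uqcrb. Of the 10 genes 6 had more than 1 probe set. The brightest Uqcrb probe set read up to 12700, with PGC-1α. It lay close to the top of the arrays only with PGC-1α plus DFO, at 12020 and 11548. The highest intensities of the arrays were 12072 and 12383 with PGC-1α plus DFO, 16346 and 16492 with PGC-1α, 12273 and 15503 with GFP plus DFO, and 15164 and 14432 with GFP. The second Uqcrb probe set read 3904 and 3348 with PGC-1α plus DFO, 4563 and 4587 with PGC-1α, 1572 and 1432 with GFP plus DFO, and 2542 and 2510 with GFP. Its log2 change with PGC-1α was 0.86 ± 0.12, against 0.20 ± 0.10 at the brightest (limma adjusted p = 0.0362 and 0.352 over all probe sets). With DFO in GFP myotubes it was at -0.75 ± 0.12, against -0.50 ± 0.10. The second probe sets of Sdha, Sdhc, Sdhd and Uqcrc2 read up to 5646 and kept the sign of the brightest in all 5 comparisons of groups. Sdhc at its second probe set was at 0.04 ± 0.11 for PGC-1α plus DFO against GFP, and 0.32 at its brightest. The remaining 2 Sdha probe sets read 1 to 50.1, and the remaining 3 Uqcrq probe sets 49.6 to 311. None of these 5 passed in any of the comparisons, and their signs differed.

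**Figure D4:**
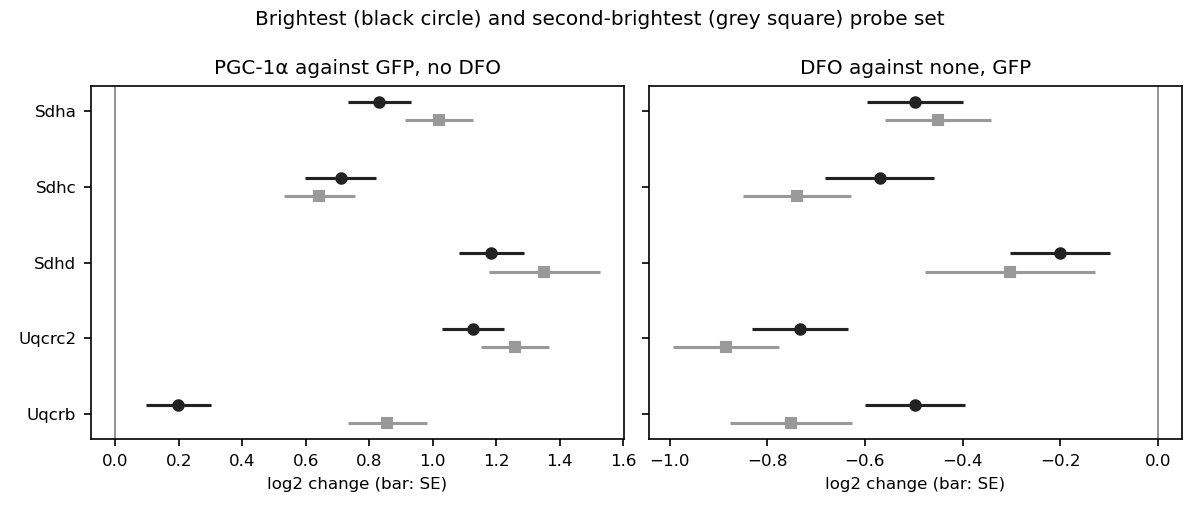
Log2 change (horizontal axes, bars of 1 SE) at the brightest probe set (black circle) and the second-brightest (grey square) of the 5 genes with 2 bright probe sets, for PGC-1α against GFP without DFO and for DFO against none in GFP myotubes. The widest gap of the 10 pairs drawn is that of Uqcrb, at 0.86 for the second against 0.20 for the brightest with PGC-1α.

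Genes that work beside the members were read from lists chosen with earlier results of these data known. Counts of called genes in them are to be read beside the shares of all genes given above for each comparison. The other complex III subunits Uqcrh, Uqcr10 and Uqcr11, and cytochrome c (Cycs), the carrier that complex III reduces, all rose with PGC-1α, 4 of 4, by 0.52 ± 0.08, 0.80 ± 0.09, 0.88 ± 0.09 and 0.82 ± 0.12. Uqcrh and Cycs lost this call without any 1 of the 6 arrays other than PGC-1α plus DFO (adjusted p = 0.0570 to 0.108), Uqcr10 and Uqcr11 without either PGC-1α array (0.0516 to 0.0666), and all 4 in the fit of the 4 arrays alone (0.0737 to 0.0998). With DFO in both arms all 4 were higher with PGC-1α, from 0.43 ± 0.08 (Uqcrh) to 1.29 ± 0.12 (Cycs). Uqcrh lost the call without either PGC-1α array, either GFP plus DFO array or PGC-1α plus DFO replicate 2. It also lost the call in the fit of the 4 arrays alone (limma adjusted p = 0.0950). DFO in GFP myotubes lowered 2 of 4, Cycs by 0.71 ± 0.12 and Uqcr11 by 0.49 ± 0.09, each with 3 left-out arrays that ended the call (either GFP plus DFO array, and GFP replicate 2 for Cycs or 1 for Uqcr11; 0.0543 to 0.0932), while Uqcrh was at -0.05 ± 0.08 and Uqcr10 at -0.25 ± 0.09. In PGC-1α myotubes DFO lowered Uqcr11 alone, by 0.35 ± 0.09, a call lost without any 1 array but PGC-1α plus DFO replicate 1 (0.0612 to 0.153), and all 4 changes were positive after spike-in scaling. All 4 stood above GFP with both PGC-1α and DFO, from 0.38 ± 0.08 (Uqcrh) to 0.71 ± 0.09 (Uqcr10). The call of Cycs was lost without GFP replicate 1 and that of Uqcrh without GFP replicate 2. In the fit of the 4 arrays alone Uqcr11 (limma adjusted p = 0.0799), Cycs (0.0871) and Uqcrh (0.116) lost this call.

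Of 11 assembly factors of complexes II and III, 5 rose with PGC-1α, 0 fell and 6 did not pass. Of all genes 4.96% were called higher and 4.77% lower there. Hccs, which attaches haem to cytochromes c and c1, read 2274 and 2244 with PGC-1α plus DFO, 2452 and 2684 with PGC-1α, 775 and 741 with GFP plus DFO, and 1015 and 986 with GFP. It rose by 1.36 ± 0.09, with Uqcc3, a complex III assembly factor, at 1.01 ± 0.09 and Sdhaf1, which aids cluster insertion into Sdhb, at 0.88 ± 0.09. With DFO in GFP myotubes 5 fell and 1 rose, beside 12.5% of all genes called lower and 11.8% called higher. Uqcc1, an assembly factor for cytochrome b, fell by 1.78 ± 0.10, more than any of the 10 subunits, and read 437 and 407 with PGC-1α plus DFO, 859 and 767 with PGC-1α, 180 and 183 with GFP plus DFO, and 643 and 603 with GFP. Bcs1l, which places the Rieske protein into complex III, fell by 1.46 ± 0.24. It read 53.2 and 60.3 with GFP plus DFO and 141 and 173 with GFP. With PGC-1α plus DFO it read 122 and 77.7, and with PGC-1α 290 and 320. Its GFP plus DFO readings lay below the array medians, and the size of its falls with DFO rests on readings near background. Uqcc3 rose by 0.44 ± 0.09. In PGC-1α myotubes 4 fell with DFO (14.2% of all genes), led by Bcs1l at -1.64 ± 0.24, Uqcc1 at -0.94 ± 0.10 and Uqcc2 at -0.54 ± 0.08. With DFO in both arms 6 were higher with PGC-1α (6.93% of all genes), led by Hccs at 1.58 ± 0.09, Uqcc1 at 1.22 ± 0.10 and Sdhaf1 at 0.99 ± 0.09. For both agents together against GFP, 5 were higher and 2 lower, beside 13.5% and 18.3% of all genes. The list's median log2 change was 0.78 with PGC-1α and -0.21 with DFO in GFP myotubes.

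The iron-sulfur cluster and haem supply list had 13 of its 16 genes measured, of which 8 rose with PGC-1α and 0 fell (median 0.68). Fdx1, a mitochondrial ferredoxin that carries electrons, rose by 3.35 ± 0.09, Alas1, the first enzyme of haem synthesis, by 1.86 ± 0.09, and Isca2, a late factor in cluster assembly, by 1.14 ± 0.14. Fdx1 read 5627 and 5428 with PGC-1α plus DFO, 3895 and 3953 with PGC-1α, 284 and 273 with GFP plus DFO, and 403 and 369 with GFP. DFO in GFP myotubes lowered 6 and raised 0 (median -0.29): Nfu1, which delivers clusters, fell by 1.36 ± 0.08, Fech, which inserts iron into haem, by 0.74 ± 0.09, and Iscu, the cluster scaffold, by 0.71 ± 0.08. In PGC-1α myotubes DFO lowered 5 and raised 2, with Nfu1 at -1.16 ± 0.08, Fech at -1.06 ± 0.09 and Lyrm4, a partner of the cysteine desulfurase, at 0.87 ± 0.09. With DFO in both arms 8 were higher and 1 lower with PGC-1α, with Fdx1 at 4.31 ± 0.09, Alas1 at 1.77 ± 0.09 and Lyrm4 at 1.35 ± 0.09. For both together against GFP, 7 were higher and 2 lower. Of all genes, 4.96% were called higher with PGC-1α and 12.5% lower with DFO in GFP myotubes. With DFO in PGC-1α myotubes 14.2% were called lower and 11.4% higher. The shares called higher and lower were 6.93% and 12% with DFO in both arms, and 13.5% and 18.3% for both together.

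Among 6 other enzymes that pass electrons to ubiquinone, 1 rose with PGC-1α, Etfdh, the electron transfer flavoprotein dehydrogenase, by 1.31 ± 0.08, and 5 did not pass (median 0.07). Etfdh read 3168 and 3205 with PGC-1α plus DFO, 3030 and 3239 with PGC-1α, 985 and 957 with GFP plus DFO, and 1283 and 1252 with GFP. DFO in GFP myotubes lowered Etfdh by 0.38 ± 0.08 and raised Sqor, the sulfide oxidising enzyme, by 0.80 ± 0.09. Sqor rose by 0.78 ± 0.09 with DFO in PGC-1α myotubes as well, the 1 gene of the list that passed there. With DFO in both arms Etfdh was higher with PGC-1α by 1.71 ± 0.08 and Prodh, proline dehydrogenase, lower by a log2 change of -0.65 ± 0.14. For both together against GFP, 3 were higher. Of all genes, 4.96% were called higher with PGC-1α, and 11.8% higher and 12.5% lower with DFO in GFP myotubes. The share called higher was 11.4% with DFO in PGC-1α myotubes and 13.5% for both together. With DFO in both arms 6.93% were called higher and 12% lower.

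**Figure D5:**
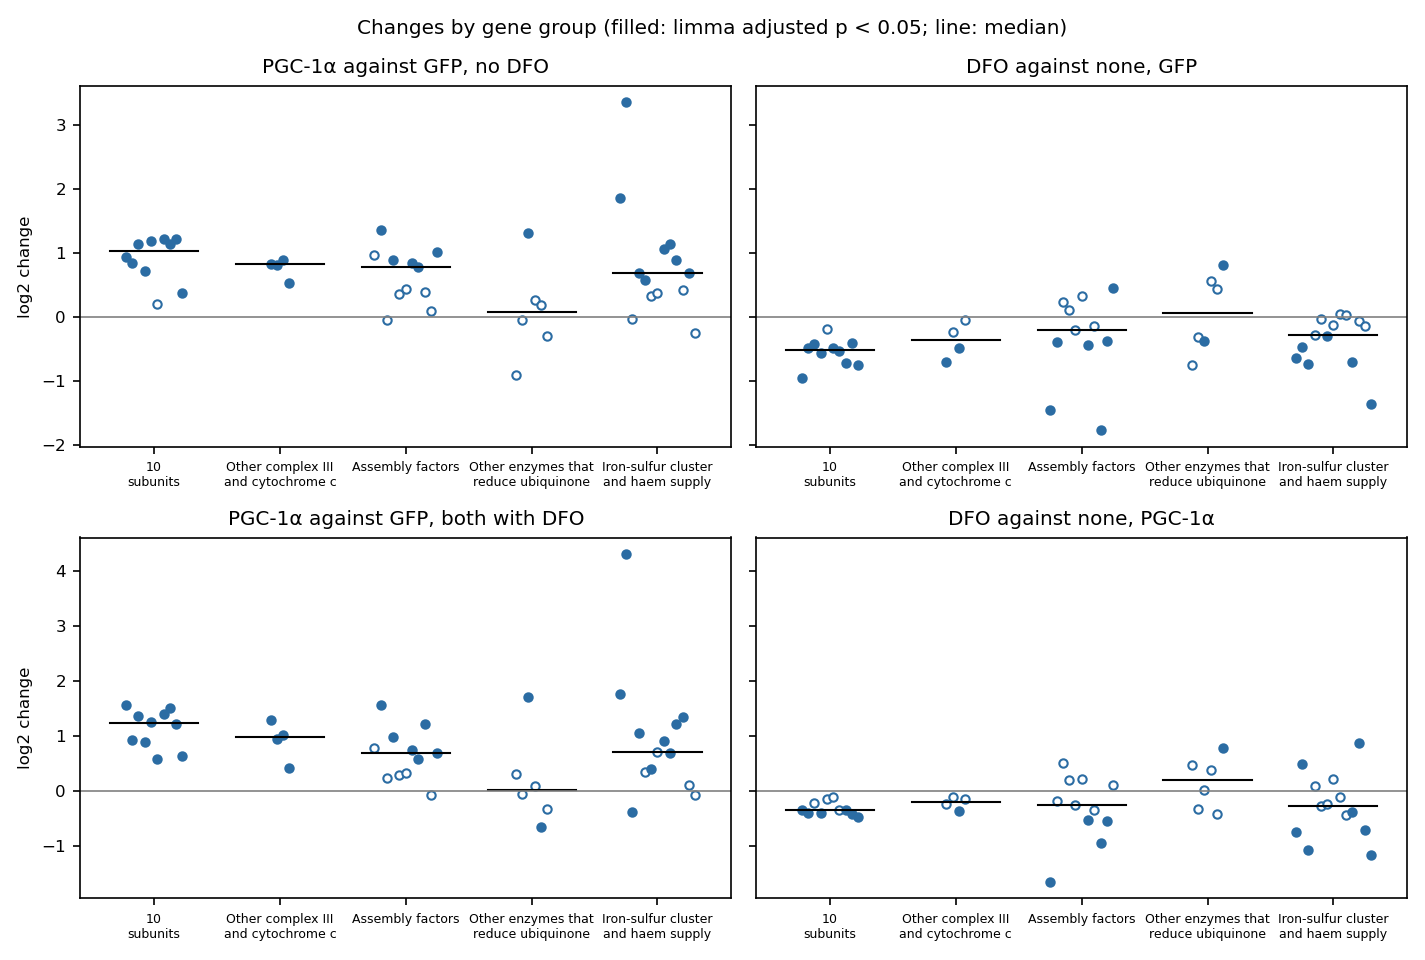
Log2 change (vertical axes) of each measured gene of the 10 subunits and of 4 lists of related genes in 4 comparisons; filled points passed a limma adjusted p of 0.05 and the line is the median. With PGC-1α the medians of the subunits, other complex III genes, assembly factors and iron supply genes are 1.03, 0.81, 0.78 and 0.68, and that of other ubiquinone-reducing enzymes is 0.07; values are on the deposited scale, and spike-in scaling raises all those for DFO in PGC-1α myotubes, 6 of the 10 subunits to above 0.

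The genes whose levels ran most like the members were found by the root mean square difference of centred log2 values over the 8 arrays, among 9086 genes above the median level. The closest to the mean profile of the iron-holding subunits were Mcur1 (0.06), Suclg1 (0.06), Mrpl4 (0.07), Ndufc2 (0.07) and Ndufa9 (0.08). The closest to that of the other subunits were Atp5c1 (0.05), Ndufb6 (0.05), Timm17a (0.05), Ndufb9 (0.05) and Ndufa6 (0.06). Measured the same way, the members themselves lay 0.07 (Uqcrfs1) to 0.38 (Uqcrb) from the iron-holding profile, and 8 of the 10, all but Uqcrfs1 and Sdhb, were farther from it than these 5 genes, Sdhc (0.18), Cyc1 (0.17) and Sdhd (0.13) of the iron-holding class included. Sdha was 0.05 from the profile of the other subunits. Mcur1 changed by 1.03 ± 0.10 with PGC-1α and by -0.47 ± 0.10 with DFO in GFP myotubes, and Atp5c1 by 0.80 ± 0.08 and -0.49 ± 0.08. The 8 arrays fall into 4 groups, so this likeness mainly reflects group means.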

How the data were processed

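The authors deposited probe-set intensity values on a linear scale, 1 column per array, and the sources used here do not give how probes were summarised or arrays scaled. Of 45101 probe sets, 34945 had 1 symbol in the platform annotation, 932 several, 9160 none, and 64 were controls. Values were log2-transformed with no filter and no pseudocount. limma 3.58.1 in R 4.3.3 fitted 4 group means to 8 arrays, with 4 residual degrees of freedom (prior 1.3) and 6 contrasts, Benjamini-Hochberg adjustment over 18193 genes per contrast, two-sided, called at 0.05. Changes are given ± SE. Permuting 2 arrays against 2 exactly could reach no two-sided p below 0.333. The number of arrays limits precision. The text names all members, the construct check, 4 further complex III and cytochrome c genes, at most 3 called genes of each other list per comparison, and the 5 nearest profiles. Members and lists were chosen with earlier results of these data known. The fit was tested on simulated data. Alternatives were 3 normalizations, 3 rules for probe sets, a signal filter, a floor at the 25th percentile, eBayes options, the replicate block, only the groups compared, and each array left out; the second-brightest probe sets and spike-ins without TrpnX were added after seeing the data. Same-numbered arrays correlated at -0.11 to 0.22 in their deviations, so the numbers were not taken as pairs. Figures used matplotlib 3.10.9 in Python 3.11.15.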

Additional observations from a re-analysis of the deposited data

How the results depend on the processing

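Over 21 alternatives besides the reported fit, the members' changes with PGC-1α, with and without DFO, kept their sign in all of them, as did the changes with DFO in GFP myotubes except Sdha by the mean of its probe sets (0.20, which includes a probe set reading near 1). The counts of members called fell for PGC-1α against GFP to 0 with only the arrays compared, where 0 of all genes passed. Fits of this kind also gave 7 for PGC-1α with DFO in both arms (Sdhc, Uqcrb and Uqcrq lost, limma adjusted p = 0.0525 to 0.0680), 6 for DFO in GFP myotubes and 5 for both agents against GFP. They called 861 of all genes for PGC-1α with DFO in both arms and 3046 for both agents against GFP. Sdha lost its call with the mean of probe sets for PGC-1α against GFP (0.60, limma adjusted p = 0.480) and with DFO in both arms (0.14, 0.890). For DFO in GFP myotubes the counts fell to 3 with spike-in scaling, with TrpnX (2920 of all genes called) or without it (2230). For DFO in PGC-1α myotubes they fell to 0 with spike-in scaling (both versions) and with only the arrays compared, to 1 with every probe set on its own, and to 3 with the replicate block. Of all genes, spike-in scaling called 4350 with TrpnX and 4201 without it, and the fit of only the arrays compared 1942. The interaction had 3 calls among genes above the median level, 1 with the floor and 4 with eBayes trend and robust options. Those options called 1467 of all genes for it, against 101 as reported. A setting's member count is to be read beside its count over all genes. Leaving out 1 array at a time, with a lone array taken to vary like the other groups, gave 6 to 9 members for PGC-1α against GFP, 8 to 10 with DFO in both arms, 3 to 9 and 0 to 4 for DFO in GFP and in PGC-1α myotubes, 7 to 8 for both against GFP, and 0 to 0 for the interaction.

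For DFO in PGC-1α myotubes spike-in scaling turned Sdhb (0.15), Sdhd (0.22), Cyc1 (0.0245), Uqcrc1 (0.00859), Uqcrc2 (0.0104), Uqcrb (0.25), Uqcrh (0.21), Uqcr10 (0.26), Uqcr11 (0.00651) and Cycs (0.12) positive. Without TrpnX these were 0.23, 0.31, 0.11, 0.0927, 0.0944, 0.34, 0.30, 0.34, 0.0906 and 0.20, and Sdhc (0.0524), Uqcrfs1 (0.0362) and Sdha (0.0405) turned too; quantile normalization turned Uqcrb (0.0183). Uqcrq for both agents against GFP became 0.46 and 0.51, and Uqcrh with DFO in GFP myotubes 0.0155. Interaction terms turned for Uqcrfs1 with median centring (-0.0231) and with any of 4 arrays left out (-0.0262 to 0.0330 over all 8), Uqcrh with spike-ins (0.20 and 0.35), Sdhd (-0.0293), Sdha (-0.46) and Uqcrq (-0.0113) with the mean of probe sets, Uqcrq without shared probe sets (-0.40), and Sdhd (-0.13) and Sdha (-0.00355) at the second-brightest probe sets. The cause was not tested for these, except that scaling adds 1 amount to every gene of a comparison.

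The iron-holding minus other difference was 0.53 (mean of probe sets) and 0.12 (second-brightest) for PGC-1α against GFP, 0.32 for DFO in GFP, -0.0454 for PGC-1α with DFO in both arms, and 0.0507 for DFO in PGC-1α at the second-brightest. For both agents against GFP it was 0.34 with quantile normalization, 0.47 with the mean of probe sets and 0.25 at the second-brightest. For the interaction it was -0.14, -0.0321 and -0.14 under these 3 and -0.00812 without shared probe sets. Left-out arrays gave ranges of 0.21 to 0.39, -0.00126 to 0.165, 0.28 to 0.39, 0.0134 to 0.0681, 0.36 to 0.39 and -0.16 to -0.0325 in the order PGC-1α against GFP, DFO in GFP, PGC-1α with DFO, DFO in PGC-1α, both, interaction. Ppargc1a with the mean of its probe sets changed by 0.73 (limma adjusted p = 0.0515) with and 0.86 (0.0544) without DFO, and by 7.77 (0.0667) in the fit of PGC-1α and GFP alone.

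The replicate block, numbers shared only by label, left 8 members called for PGC-1α against GFP (Uqcrq lost, adjusted p = 0.0812) and 3 for DFO in PGC-1α myotubes, and changed no other member's call. Over all genes the number called ranged from 0 to 3746 for PGC-1α against GFP (1770 as reported) and 861 to 4992 for PGC-1α with DFO (3446). For the interaction it ranged from 3 to 1467 (101 as reported). For DFO in GFP the lowest was 2230 (4409 as reported), for DFO in PGC-1α 1942 (4662) and for both 3046 (5786). In that order, the highest counts were 6288, 7068 and 9289, from the fit of every probe set on its own. They count probe sets, of 45037 tested, and not genes. With spike-in scaling 85.6%, 89.3%, 76.0% and 83.9% of called genes were higher for PGC-1α against GFP, PGC-1α with DFO, DFO in PGC-1α and both, against 51.0%, 36.6%, 44.6% and 42.4% as deposited.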
